A study of Mus musculus with 30 samples.

Results

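This report is about 54 genes of presynaptic transmitter release, among the 17477 genes counted by RNA-seq in mouse hippocampus. They were chosen by name for what their proteins do, with earlier results of these data known. The set holds 12 active zone scaffolds, 3 priming factors, 10 genes of the fusion machinery, 7 synaptotagmin and Doc2 genes, 4 genes of the Rab3 cycle, 11 vesicle proteins and 7 genes of vesicle recycling. All 54 were found in the table by symbol and all 54 passed the filter on low counts in both sexes, with at least 98 counts in every library. The mice were adult C57 BL/6J animals with no transgene or drug. After weaning they were either housed singly (social isolation, SI) or kept several to a cage (group housed, GH) until the tissue was taken. There were 8 SI females (animals 41, 45, 49, 52, 53, 63, 68 and 73) and 7 GH females (46, 47, 48, 54, 71, 78 and 79). The males were 7 SI (7, 8, 25, 27, 33, 38 and 39) and 8 GH animals (1, 2, 3, 15, 16, 22, 23 and 24). Each library was made from hippocampal tissue of 1 mouse. Which GH mice shared a cage is not given in the sources used here, so p-values rest on the spread between mice as if each stood alone.

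When an action potential reaches a nerve terminal, calcium enters through channels held at the active zone and vesicles already docked there fuse with the membrane. RIM proteins (Rims1 to Rims4), the RIM-binding protein Rimbp2, the giant scaffolds Bassoon (Bsn) and Piccolo (Pclo), ELKS proteins (Erc1, Erc2) and liprins-alpha (Ppfia2 to Ppfia4) build the active zone. Munc13 proteins (Unc13a to Unc13c) prime vesicles, SNARE proteins (Stx1a, Snap25, Vamp1, Vamp2) drive fusion, most synaptotagmins sense calcium, and dynamin and endophilin retrieve the membrane afterwards. In the hippocampus this machinery serves the glutamatergic synapses of the granule and pyramidal cells, marked by Slc17a7 (VGLUT1), and the terminals of interneurons. RNA for terminals is made mostly in the cell body, so axons that reach the hippocampus from elsewhere add little to such libraries. In bulk tissue, fewer cells of a type and less RNA per cell cannot be told apart.

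Sequences upstream of 4 members are shown because the results turn on these genes: Rims1 and Ppfia4 passed the test in females, Bsn had the smallest p in males, and Rab3a is an example with the opposite sign. The 250 bases before the most upstream start are from RefSeq on GRCm38.p6, in lower case, 5′ to 3′ on the gene's strand. Capitals mark matches of GGGCGG (the GC box) and CACGTG (an E-box) on either strand. The Rims1 window is chr1:22806159-22806408, minus strand. That of Ppfia4 is chr1:134344717-134344966, minus strand, before the first of 2 listed starts. Bsn lies at chr9:108190384-108190633, minus strand, and Rab3a at chr8:70754453-70754702, plus strand, before the first of 2 starts.
Rims1: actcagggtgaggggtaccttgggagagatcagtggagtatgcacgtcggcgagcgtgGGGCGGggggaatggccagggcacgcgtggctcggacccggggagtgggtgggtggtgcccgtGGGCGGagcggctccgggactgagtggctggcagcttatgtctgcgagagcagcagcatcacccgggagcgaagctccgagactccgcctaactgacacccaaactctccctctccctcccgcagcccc
Ppfia4: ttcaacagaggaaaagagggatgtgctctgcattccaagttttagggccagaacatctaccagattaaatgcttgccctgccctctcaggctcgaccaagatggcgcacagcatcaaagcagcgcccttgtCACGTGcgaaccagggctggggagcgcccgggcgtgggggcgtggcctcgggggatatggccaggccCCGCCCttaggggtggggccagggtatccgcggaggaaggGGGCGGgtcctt
Bsn: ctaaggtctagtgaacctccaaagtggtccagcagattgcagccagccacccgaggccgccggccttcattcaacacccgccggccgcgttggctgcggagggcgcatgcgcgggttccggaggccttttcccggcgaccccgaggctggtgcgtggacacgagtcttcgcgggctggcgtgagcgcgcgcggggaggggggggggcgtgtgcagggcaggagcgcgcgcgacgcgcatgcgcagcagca
Rab3a: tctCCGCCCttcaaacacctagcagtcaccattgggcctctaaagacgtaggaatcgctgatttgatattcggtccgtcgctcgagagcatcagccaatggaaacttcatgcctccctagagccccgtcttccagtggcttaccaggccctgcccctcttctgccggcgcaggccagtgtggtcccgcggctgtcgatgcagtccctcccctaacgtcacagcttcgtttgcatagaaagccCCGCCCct
The windows of Rims1 and Rab3a held 2 GC boxes each, that of Ppfia4 2 GC boxes and 1 E-box, and that of Bsn none of the motifs searched. RefSeq windows were matched for 43 of the 54 genes, 54 windows in all. A GC box was in 32 of the 54 windows (59.3%), belonging to 31 of the 43 genes, against 32.7% of the 32851 windows of all genes. An E-box was in 9.26% of the members' windows and 6.02% of all, and the CRE TGACGTCA in 3.7% and 1.55%. TATAAA was in 5.56% of the members' windows and 12.4% of all windows. These matches are letters in a window, not measured binding sites, and GC boxes were in windows of genes with either sign of the housing difference.

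The libraries held from 18809307 to 100844898 counts on genes, and every marker of dentate granule and pyramidal cells on the lists used had counts in all 30. SI males 25, 33 and 39 stood apart from the other libraries. In each library, the deviation of log2 CPM from the mean of its sex was fitted against log2 transcript length over all genes. The slope was -0.4339, -0.4133 and -0.3231 in SI males 25, 33 and 39 and between -0.0407 and 0.2225 in the other 12 males, so these 3 libraries held fewer counts of long transcripts. They also lay at 63.4 to 103.3 on the first principal component of males, which held 54.2% of the variance, while no other male was above 0.7. Male results are therefore given with and without them. Among females, SI 53 and GH 78 had the lowest slopes, -0.1721 and -0.1532.

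Levels of the 54 genes spanned a wide range. They are given as CPM (counts scaled to library size after TMM normalization), and per kilobase of the longest coding transcript where genes are compared with each other. In GH females the highest level per kilobase was that of Snap25, 692 ± 36.5 CPM per kb (SD, n = 7), followed by the vesicle membrane protein synaptophysin (Syp) and by Slc17a7 at 472 ± 38.7. Vamp2 at 440 ± 21.5 and the complexin Cplx2 at 428 ± 34.7 came next, and from Syp to Cplx2 each gene lay within 1 SD of the next in this order. The scaffolds were lower, from 5.92 CPM per kb for Erc1 to 53.1 for Ppfia3, with Rims1 at 38.5 and Bsn at 33.2. At the bottom were the synapsin Syn3 at 1.43 ± 0.333 and Syt2 at 3.63 ± 0.544. GH males had Snap25 first too, at 783 ± 41.1 CPM per kb (SD, n = 8), then Syp at 593 ± 48.2, and Syn3 last, at 1.38 ± 0.359. Together the 54 genes took from 1.83% to 2.64% of a library's counts.

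In females the members that passed the test for SI against GH were active zone scaffolds. Rims1, the RIM isoform that tethers vesicles and calcium channels, and Ppfia4, the liprin-alpha 4 scaffold, fell under SI. Of the 12 scaffolds, 9 had negative fitted log2 fold changes (Log2FC), among them all 4 RIM genes, with a median of -0.14 over the scaffolds and -0.2 over the RIM genes. The other 42 genes lay around 0, and the median over all 54 was 0.01, the same as the 0.01 over all 16026 genes tested. The model held surrogate variables, 3 in females and 2 in males, meant to take up variation between libraries other than housing. In males the first was 0.597, 0.517 and 0.345 in SI males 25, 33 and 39 and negative in every other male. It is therefore not separate from housing and can take up part of a housing difference. By the quasi-likelihood test of edgeR, with p-values adjusted over all genes by the Benjamini-Hochberg method, 2 of 54 passed an adjusted p of 0.05 (3.7%), against 3.89% of all genes. In this fit the share of calls was thus at the background. In other fits of females given further on the share ran from 0.0% to 24.1%, and in several of them it was above the background.

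Rims1 stood at 158 to 234 CPM in SI females (median 190) and at 211 to 265 in GH females (median 246). All 8 SI females were below the GH median and 6 of 8 below the lowest GH female, but SI females 41 and 52 lay among the GH values. The fitted Log2FC was -0.27 (SE 0.0681, adjusted p = 0.0386). On NCBIM37 the gene spans chr1:22276332-22911673 on the minus strand. Ppfia4 was at 110 to 124 CPM in SI females (median 114) and 120 to 146 in GH females (median 131). Again all 8 SI females were below the GH median and 6 of 8 below the lowest GH female, and both groups spread little, with coefficients of variation of 5.05% and 5.87%. Its Log2FC was -0.17 (SE 0.0387, adjusted p = 0.0246), and the gene spans chr1:136193360-136229505 on the minus strand of NCBIM37. Both calls were sensitive to single mice. Of 15 fits that left out 1 female each, Ppfia4 passed in 9 and Rims1 in 6, with adjusted p up to 0.101 and 0.143, while the Log2FC stayed negative in all.

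The other RIM genes had differences of similar size that missed the threshold. Rims2, like Rims1 a long RIM with a Rab3-binding domain, was at 56.2 to 75.3 CPM in SI females (median 59.8) and 66.5 to 81.6 in GH females (median 71.5). Of 8 SI females, 6 were below every GH female, and the Log2FC was -0.20 (SE 0.0612, adjusted p = 0.0715). Rims4, a short RIM that keeps only the C-terminal part, was at 57.1 to 99.6 CPM in SI females (median 76.3) and 76.9 to 105 in GH females (median 89). Here 4 of 8 SI females were below every GH female, and the Log2FC was -0.20 (SE 0.0606, adjusted p = 0.0709). Rims3, the other short RIM, had a Log2FC of -0.14 (SE 0.0963, adjusted p = 0.441), with 3 SI females below and 1 above the GH range.

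Not every scaffold had a negative sign. Rimbp2, which links RIMs to calcium channels, was at 81 to 139 CPM in SI females (median 108) and 83 to 117 in GH females (median 104). The CPM of the groups overlapped in most mice, and the fitted Log2FC, which takes the surrogate variables into account, was 0.15 (SE 0.0403, adjusted p = 0.0525). Bsn was at 366 to 558 CPM in SI females (median 446) and 350 to 617 in GH females (median 545). Its Log2FC was -0.13 (SE 0.0652, adjusted p = 0.283), and no SI female left the GH range, whose lowest value was that of GH female 78. Pclo was at 125 to 203 CPM (median 147) against 111 to 198 (median 167), with a Log2FC of -0.03 (SE 0.065, adjusted p = 0.845). Of the liprins, Ppfia3 was at -0.15 (adjusted p = 0.0867) and Ppfia2 at 0.10 (adjusted p = 0.225), and the ELKS genes Erc1 and Erc2 were at -0.06 and 0.05.

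**Figure D1:**
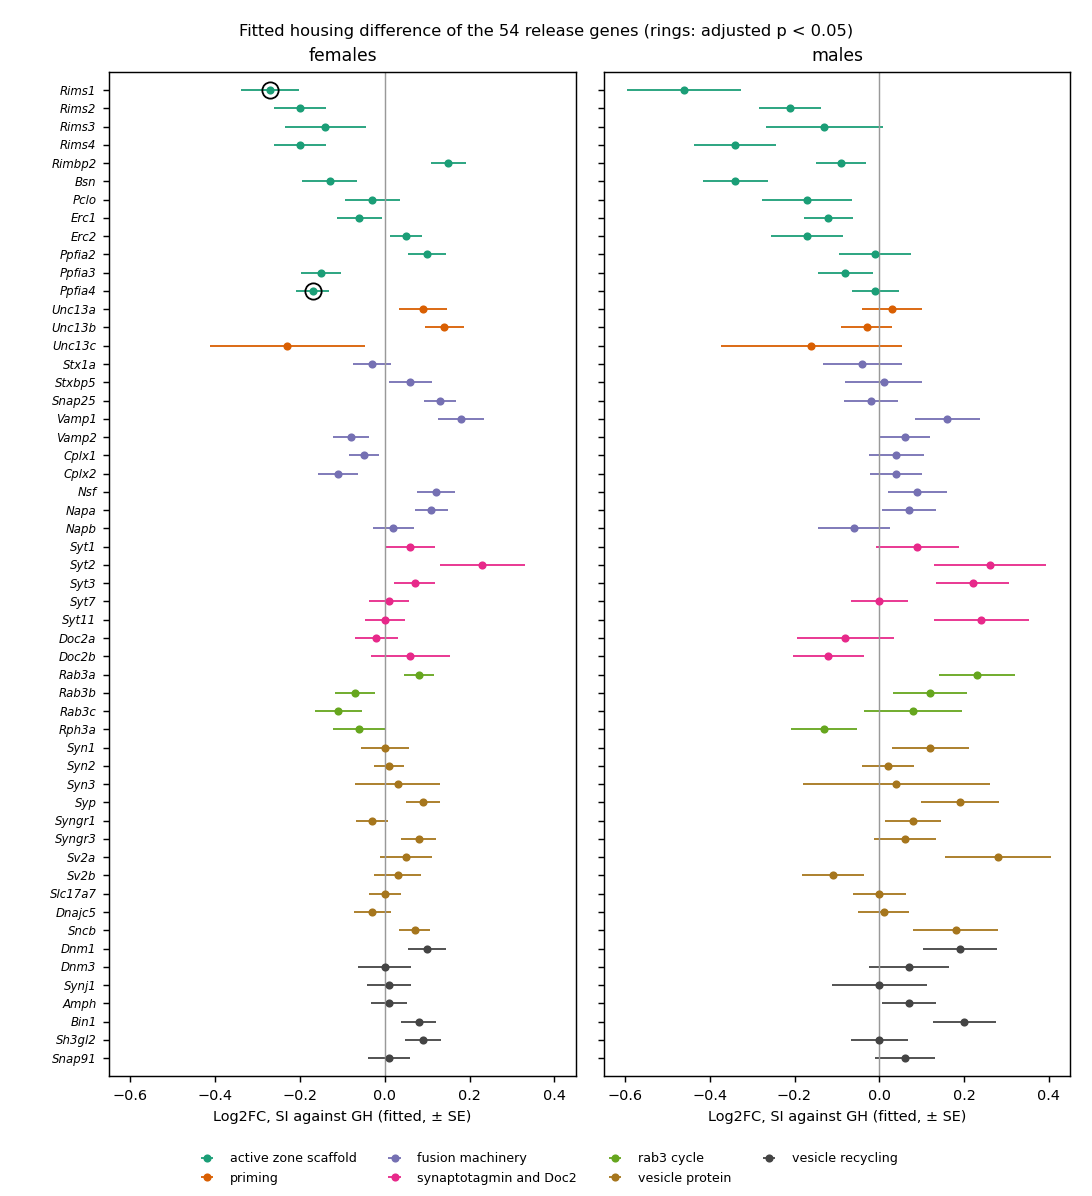
Fitted Log2FC of SI against GH (x axis, ± SE) for the 54 genes by role (y axis), females left and males right, with rings for an adjusted p under 0.05. The RIM genes lie left of 0 in both sexes, the rings mark Rims1 and Ppfia4 in females, and most vesicle and recycling genes lie near 0 or to the right.

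Outside the scaffolds, positive values were more common than negative ones in females, and none passed the adjusted threshold. Counting at an unadjusted p under 0.05, 6 genes were lower in SI females (Rims1, Rims2, Rims4, Ppfia3, Ppfia4 and Cplx2), against 11.0% of all genes. There were 10 higher (Rimbp2, Ppfia2, Unc13b, Snap25, Vamp1, Nsf, Napa, Syt2, Rab3a and Dnm1), against 9.29% of all genes. Snap25, the membrane SNARE with the highest level of the set, was at 1520 to 1680 CPM in SI females (median 1580) and 1360 to 1540 in GH females (median 1470). In 7 of 8 SI females it exceeded all GH females, and the Log2FC was 0.13 (SE 0.0379, adjusted p = 0.0678). Its vesicle partner Vamp2 was at 847 to 990 CPM (median 935) against 924 to 1060 (median 955), with a Log2FC of -0.08 (SE 0.0419, adjusted p = 0.336). Vamp1, the second vesicle SNARE, was at 0.18 (adjusted p = 0.0767), and Nsf and Napa, which take used SNARE complexes apart, were at 0.12 (adjusted p = 0.137) and 0.11 (adjusted p = 0.113). The complexins, clamps and helpers of fusion, were at -0.05 for Cplx1 and -0.11 for Cplx2.

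Synaptotagmin and Doc2 genes, Rab3 genes, vesicle proteins and recycling genes stayed close to 0 in most cases in females. Syt1, the fast calcium sensor, was at 629 to 1030 CPM in SI females (median 759) and 590 to 847 in GH females (median 728), with a Log2FC of 0.06 (SE 0.0572, adjusted p = 0.615). Rab3a, the vesicle GTPase that binds RIM, was at 366 to 463 CPM (median 413) against 345 to 481 (median 367), with a Log2FC of 0.08 (SE 0.0357, adjusted p = 0.239). For Syp the ranges were 1320 to 1690 (median 1440) and 1220 to 1630 CPM (median 1330), with a Log2FC of 0.09 (SE 0.0412, adjusted p = 0.259). The groups overlapped in most mice for these 3 genes. Slc17a7, which loads vesicles with glutamate, was at 1160 to 1620 CPM in SI females (median 1360) and 1250 to 1540 in GH females (median 1380). Its adjusted p was 0.999, with an SE of 0.0385. Bin1 (amphiphysin 2) was at 258 to 319 CPM (median 298) against 250 to 292 (median 264), with a Log2FC of 0.08 (SE 0.0415, adjusted p = 0.314) and 5 of 8 SI females above the GH range. None of the 11 vesicle proteins had an unadjusted p under 0.05, and their Log2FC ran from -0.03 to 0.09. In the priming set, Unc13b was at 0.14 (adjusted p = 0.0962), Unc13a at 0.09 (adjusted p = 0.411) and Unc13c at -0.23 (SE 0.183, adjusted p = 0.53), the last with a coefficient of variation of 45% among SI females.

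**Figure D2:**
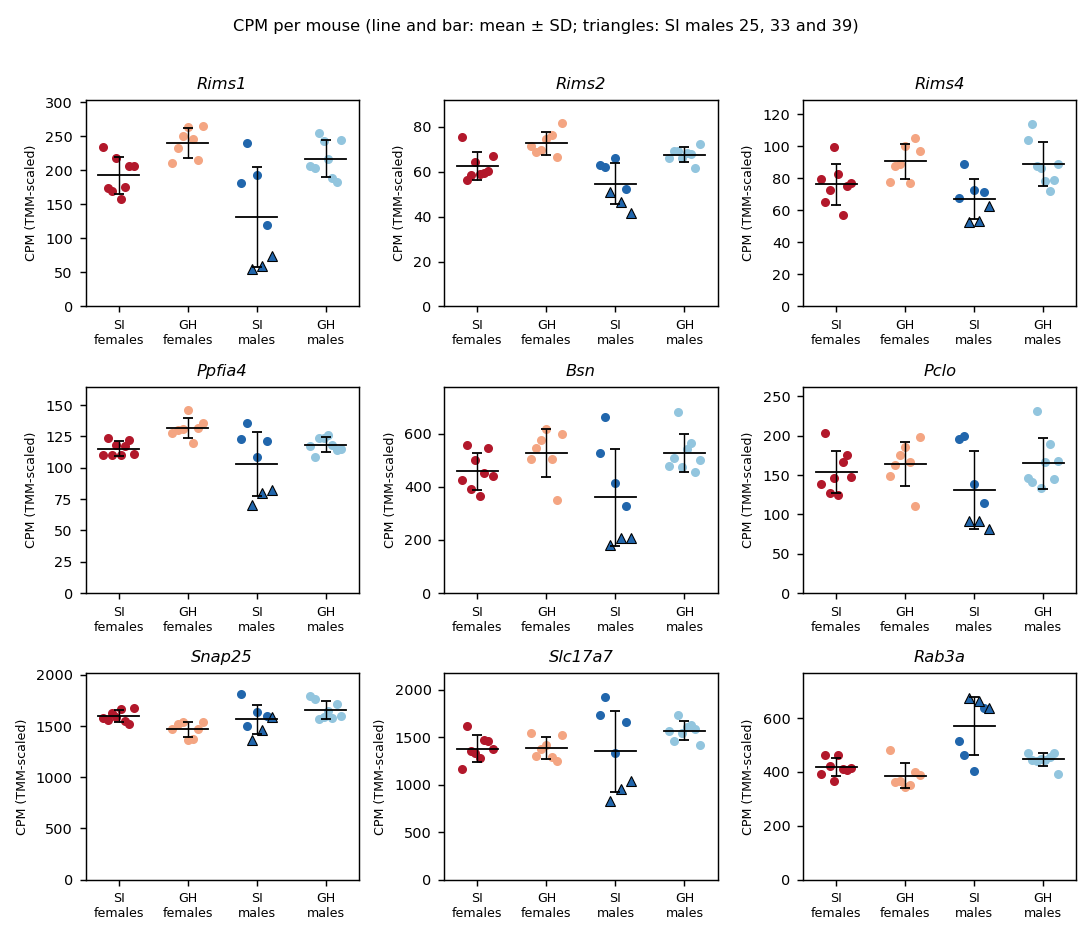
TMM-scaled CPM (y axis, from 0) of 9 members in each mouse of the 4 groups, with mean and SD as line and bar and SI males 25, 33 and 39 as triangles. For Rims1, 6 of 8 SI females lie below every GH female, and the 3 triangles lie at 54.5, 60.1 and 74.3 CPM, far under the other males, whereas for Rab3a they are among the highest.

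The female calls depended on the model as follows. DESeq2 with the same surrogate variables called 9 of 54 (16.7%, 5 lower and 4 higher), against 9.54% of all genes with an adjusted p, and these were Rims1, Rims2, Rims4, Rimbp2, Ppfia3, Ppfia4, Snap25, Vamp1 and Napa. Removing each library's trend with transcript length and GC content before the fit gave 13 (24.1%, 5 lower and 8 higher), against 9.48% of all genes. Leaving out SI female 53 and GH female 78, a choice made after seeing the data, gave 9 (16.7%, 5 lower and 4 higher), against 9.64%. In these 3 fits the members were called more often than all genes, which was not the case in the fit described first. Without surrogate variables edgeR called no member, and 11 had an unadjusted p under 0.05, against 11.7% of all genes. Rims1 and Ppfia4 passed with DESeq2, with the trend removed and without these 2 mice, with Log2FC from -0.30 to -0.15.

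In males no member passed the threshold. The smallest adjusted p was 0.295, shared by Rims1, Rims4 and Bsn, and no gene of the 15833 tested passed either (0.0%). All 12 scaffolds had negative fitted Log2FC, with a median of -0.15 over the scaffolds and -0.28 over the RIM genes. This tally depended on the fit. Without SI males 25, 33 and 39 there were 11 of 12 negative, with a median of -0.06, and 7 of 12 with a median of -0.03 when the same mice were fitted with no surrogate variables. After removal of the length and GC trends 9 of 12 were negative, with a median of -0.07. The median over all 54 was 0.01. There were 10 members with an unadjusted p under 0.05. Of these, 4 were lower in SI males (Rims1, Rims2, Rims4 and Bsn), against 7.38% of all genes, and 6 were higher (Syt3, Syt11, Rab3a, Sv2a, Dnm1 and Bin1), against 5.63%. DESeq2 with surrogate variables called 1 member, Bsn (adjusted p = 0.0216), against 0.353% of all genes with an adjusted p.

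Rims1 ran from 54.5 to 240 CPM in SI males (median 119) and from 182 to 254 in GH males (median 211). The 3 lowest were SI males 25, 33 and 39 at 54.5, 60.1 and 74.3 CPM, while the other 4 SI males lay between 119 and 240. The fitted Log2FC was -0.46 (SE 0.134, adjusted p = 0.295). Rims2 was at 41.8 to 66.1 CPM in SI males (median 52.2) and 61.5 to 72.5 in GH males (median 68.2), with a Log2FC of -0.21 (SE 0.0733, adjusted p = 0.316). All 7 SI males were below the GH median for Rims2 and 4 below every GH male. Rims4 was at 52.7 to 88.6 CPM (median 67.8) against 71.8 to 114 (median 87.1), with a Log2FC of -0.34 (SE 0.096, adjusted p = 0.295) and 5 of 7 SI males below every GH male.

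Bsn ran from 180 to 662 CPM in SI males (median 327) and from 456 to 682 in GH males (median 506), with a Log2FC of -0.34 (SE 0.0766, adjusted p = 0.295). The lowest were SI males 25, 39 and 33 at 180, 207 and 208 CPM, and SI male 8, at 662, was close to the highest GH male. Pclo was at 81.4 to 199 CPM (median 115) against 133 to 231 (median 156), with a Log2FC of -0.17 (SE 0.106, adjusted p = 0.49). Rimbp2 was at 44.3 to 144 CPM (median 102) against 103 to 136 (median 113), with a Log2FC of -0.09 (SE 0.0596, adjusted p = 0.514). Ppfia4, which fell in females, was at 70 to 136 CPM in SI males (median 109) and 109 to 126 in GH males (median 117), with a Log2FC of -0.01 (SE 0.0555, adjusted p = 0.933). Outside SI males 25, 33 and 39, Ppfia4 stayed between 109 and 136 CPM.

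Positive signs in males were found in every role but the scaffolds. The positive genes with an unadjusted p under 0.05 were synaptotagmin, Rab3, vesicle and recycling genes. Rab3a was at 402 to 676 CPM in SI males (median 636) and 392 to 472 in GH males (median 448), with 5 of 7 SI males above every GH male. Its Log2FC was 0.23 (SE 0.09, adjusted p = 0.333). Syp was at 1370 to 2160 CPM (median 1890) against 1310 to 1710 (median 1530), with a Log2FC of 0.19 (SE 0.0915, adjusted p = 0.393). Bin1 was at 285 to 523 CPM (median 381) against 263 to 315 (median 287), with a Log2FC of 0.20 (SE 0.0745, adjusted p = 0.333). For all 3 genes, 5 of 7 SI males exceeded the GH range, SI males 25, 33 and 39 among them. Without these 3 mice the Log2FC was -0.03 for Rab3a, -0.06 for Syp and 0.01 for Bin1, so that Rab3a and Syp changed sign. With the same mice and no surrogate variables it was 0.19, 0.16 and 0.15. Snap25 was at 1360 to 1810 CPM in SI males (median 1590) and 1570 to 1790 in GH males (median 1630), with a Log2FC of -0.02 (SE 0.0635, adjusted p = 0.9). Vamp2 was at 995 to 1140 CPM (median 1040) against 952 to 1140 (median 1010), with a Log2FC of 0.06 (SE 0.0603, adjusted p = 0.687). Both SNARE genes overlapped between the groups. Syt1 was at 597 to 1220 CPM (median 734) against 691 to 1050 (median 874), with a Log2FC of 0.09 (SE 0.0987, adjusted p = 0.725). Slc17a7 was at 828 to 1920 CPM (median 1330) against 1420 to 1730 (median 1570). Its adjusted p was 0.997, with an SE of 0.0625, and SI males 25, 33 and 39 were the 3 lowest at 828, 956 and 1040 CPM. Without them the Log2FC of Pclo, Rimbp2, Ppfia4, Snap25, Vamp2, Syt1 and Slc17a7 lay between -0.08 and -0.01, and between -0.02 and 0.12 with no surrogate variables.

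Spread between mice was larger among SI males than in any other group. The coefficient of variation over mice had a median of 28.6% among SI males over the 54 genes, against 9.12% among GH males, and was larger in SI males for 53 of 54 genes. In females the medians were 10.4% under SI and 10.8% under GH. Relative to the mean log2 CPM of GH males, the scaffolds averaged -0.99, -0.93 and -0.83 in SI males 25, 33 and 39, and the priming genes -0.81, -0.73 and -0.78. Recycling genes averaged -0.51, -0.52 and -0.46 in the same mice, while the fusion machinery was at -0.12, -0.12 and -0.11 and the Rab3 genes at -0.06, -0.03 and -0.09. The means near 0 average over genes that lay far from the controls on both sides. Among the 4 Rab3 genes, Rph3a (rabphilin, a Rab3 effector) was at -1.3, Rab3a at 0.56 and Rab3c at 0.39 over the 3 libraries. In the fusion set Nsf was at -0.77, Stxbp5 (tomosyn, which binds syntaxin) at -0.67 and Cplx2 at 0.58. All 12 scaffolds lay below 0 in these libraries, from -1.79 to -0.55. In the other SI males the scaffolds averaged 0.01 (animal 7), 0.14 (8), -0.14 (27) and -0.31 (38), against -0.12 to 0.17 in GH males. Over all roles these values are descriptions of single libraries and were not tested.

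**Figure D3:**
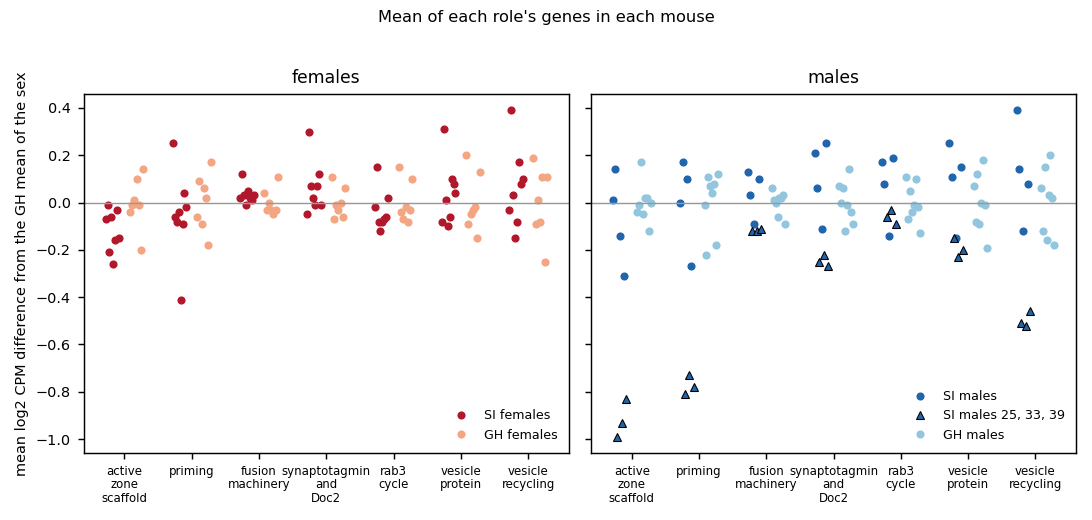
Mean log2 CPM difference of each role's genes from the GH mean of the same sex (y axis) in each mouse, by role (x axis), with females left and males right and SI males 25, 33 and 39 as triangles. The triangles lie between -0.99 and -0.73 for scaffolds and priming genes, and the means of fusion and Rab3 genes, whose members went both ways, lie between -0.12 and -0.03. All 8 SI females lie below 0 for the scaffolds, from -0.26 to -0.01, but overlap with the GH females, which lie from -0.2 to 0.14.

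The mean log2 CPM of these 3 libraries minus that of GH males was -1.79 for Rims1, -1.4 for Bsn, -1.25 for Doc2b and -1.22 for Rimbp2, the lowest of the 54 beside Rph3a. The same difference was 1.07 for Syt11, a synaptotagmin that does not bind calcium, 1.06 for the low-level Syn3 and 0.68 for Bin1. Syt11 was at 2370, 1880 and 1470 CPM in SI males 25, 33 and 39 and at 835 to 1180 in the other 4, against 770 to 1030 in GH males. In those other 4 SI males the same mean difference was -0.28 for Rims1, -0.23 for Rims4 and -0.17 for Bsn. Values of like size on the other side were 0.25 for Sv2a, 0.23 for Dnm1 and 0.22 for Syt2, and none of the 54 genes reached 0.3 in either direction.

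Without SI males 25, 33 and 39 the male results were smaller. No member passed the adjusted threshold, and 7 of 54 had an unadjusted p under 0.05 (6 lower, 1 higher), against 6.29% of all genes. Bsn was at -0.20 and Rims4 at -0.27 in that fit, Rims1 at -0.13 and Rims2 at -0.06, and 45 of 54 genes had a negative sign, with a median of -0.03. That fit has 12 mice and 4 surrogate variables. With the same mice and no surrogate variables, a setting added after seeing the data, 2 of 54 had an unadjusted p under 0.05, against 3.36% of all genes, and only 15 of 54 were negative, with a median of 0.07. The sign of the set as a whole in males therefore turned with the model. The 4 RIM genes were negative in both fits, with medians of -0.1 and -0.19. This was not particular to them, as Bsn (-0.20 and -0.12), Sv2b (-0.10 and -0.02) and some other members were negative in both too. With all 15 males and no surrogate variables, 38 of 54 genes were negative and the median was -0.15. The scaffolds then had a median of -0.33, and Rims1 was at -0.72.

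Another single mouse also moved the male calls. Without SI male 27, 15 of 54 genes passed (27.8%, 7 lower and 8 higher), against 15.3% of all genes. The lower ones were Rims1, Rims2, Rims4, Bsn, Erc2, Doc2b and Rph3a, and the higher ones Syt3, Syt11, Rab3a, Syp, Sv2a, Sncb, Dnm1 and Bin1. Rims1 was at -0.69 (adjusted p = 0.00498) and Bsn at -0.44 (adjusted p = 0.00542) in that fit, which keeps SI males 25, 33 and 39. SI male 27 had a length slope of 0.05, within the 0.0049 to 0.2135 of GH males. Its scaffolds, at -0.14, lay just below the GH range of -0.12 to 0.17. In this mouse 51 of the 54 members were below the GH mean, the most in any library, against 15 to 42 in GH males.

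Transcript length differed between roles and moved with the male differences. The longest coding transcripts of the 54 genes ran from 1351 bases (Sncb) to 20082 (Pclo), with a median of 4386, against 3015 over all genes tested in females. Across the members, Spearman's rho between length and Log2FC was -0.28 in females and -0.4 in males, against -0.03 and -0.3 across all genes. Genes are not independent replicates and share the same libraries, so these are descriptions. Without SI males 25, 33 and 39 rho across the members was 0.25 with surrogate variables and -0.27 without them, so its sign turned with the model (-0.1 and -0.03 across all genes). With each library's length and GC trend removed, rho across the members was 0.07 in all males and -0.2 in females. Across all genes it was 0.1 and -0.01. That removal takes out the relation with length by construction, so a rho near 0 after it is no result about the members. After that removal the RIM genes kept a negative Log2FC in both sexes, with medians of -0.21 in females and -0.24 in males, and the scaffolds had medians of -0.1 and -0.07. The part of RNA length or integrity in the male differences was not tested.

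**Figure D4:**
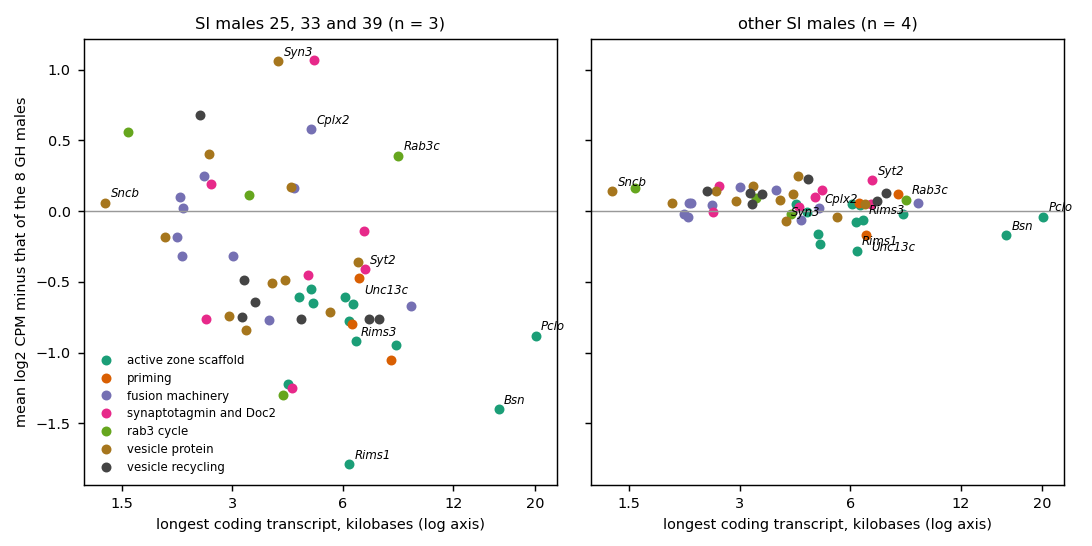
Mean log2 CPM of SI males minus that of the 8 GH males (y axis) against the longest coding transcript in kilobases (x axis, log scale) for the 54 genes, with SI males 25, 33 and 39 left and the other 4 SI males right. On the left Rims1 is at -1.79 and Bsn at -1.4 while Syt11 and Syn3 are above 1, and on the right all genes lie within 0.3 of 0.

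Set side by side, 13 members were negative in both sexes, 22 positive in both and 19 of opposite sign. Rims1, Rims2 and Rims4 had an unadjusted p under 0.05 and a negative sign in both sexes, and Rab3a and Dnm1 (dynamin 1, which cuts off retrieved vesicles) a positive sign in both. Another 16 genes had such a p in 1 sex, and 33 in neither. Of all genes, 20.2% had such a p in females and 13.0% in males. The share of all genes with such a p or the same sign in both sexes was not counted. These tallies of members are therefore descriptions. Log2FC of Rims1, Rims2 and Rims4 was negative in all 28 female and all 29 male fits computed for each. The same held for Bsn, and Bin1 was positive in all 28 and all 29. These fits reuse the same mice, 15 per sex leaving out 1 mouse each, so they are not independent. Such a tally was not made over all genes. Dnm1 was at 0.10 in females and 0.19 in males, with adjusted p of 0.241 and 0.37. No member separated SI from GH completely in either sex, against 0.3% of all genes in females and 0.0568% in males.

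Whether the housing effect differed between the sexes was tested as an interaction in 1 fit of all 30 mice. No member passed the adjusted threshold in edgeR, against 0.0061% of all genes, and none did with DESeq2, against 0.061%. At shares this low, 0 of 54 does not set the members apart from all genes. In the edgeR fit 6 of 54 had an unadjusted p under 0.05, against 7.03%. These were Rimbp2, Snap25, Unc13b, Stx1a, Cplx2 and Syngr3. The smallest p was that of Rimbp2, whose Log2FC in males minus that in females was -0.19 (SE 0.0577, adjusted p = 0.541). Snap25 followed with -0.17 (SE 0.0566, adjusted p = 0.584). For Ppfia4 the difference was 0.12 (SE 0.0678, adjusted p = 0.739) and for Rims1 -0.13 (SE 0.149, adjusted p = 0.885), so their calls in females are not shown to differ from the male values.

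Other genes of the presynapse, 78 in all, showed a similar share of calls. In females 3 of 78 passed (3.85%, against 3.89% of all genes), 2 lower and 1 higher, with a median Log2FC of 0.01. Apba1 (Mint1, a Munc18-binding adaptor) fell by 0.24 (SE 0.0544, adjusted p = 0.0214), and the clathrin adaptor Epn1 fell by 0.18 (SE 0.0463, adjusted p = 0.0417). Hspa8, the chaperone that uncoats clathrin vesicles, rose by 0.22 (SE 0.0434, adjusted p = 0.0129). At an unadjusted p under 0.05 there were 9 lower and 9 higher, 23.1% together, against 20.2% of all genes. In other release machinery, Prrt2, a SNARE regulator, was at 0.19 (adjusted p = 0.0541) and Cadps, a dense-core vesicle priming factor, at 0.12 (adjusted p = 0.0583). Among other vesicle and Rab proteins Syt16, Sv2c and Syt4 had the smallest p, with Log2FC of -0.11, 0.20 and 0.08, and none of 31 passed. Among other recycling proteins, the endocytic adaptor Ston2 was at -0.15 (adjusted p = 0.06).

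In males edgeR and DESeq2 with surrogate variables called none of the 78. At an unadjusted p under 0.05 in edgeR 10 were lower and 8 higher, 23.1% together, against 13.0% of all genes. Stxbp5l, a tomosyn that binds syntaxin, was at -0.51 (SE 0.147, adjusted p = 0.295), Apba1 at -0.21 (adjusted p = 0.312) and Prrt2 at 0.25 (adjusted p = 0.319). Of the recycling proteins, Ap2s1 was at 0.24, Ston2 at -0.37 and Synj2 at -0.16. The vesicular transporters of interneurons (Slc32a1) and of subcortical glutamate neurons (Slc17a6) were at 0.20 and 0.47, and the proton pump subunit Atp6v0a1 at 0.17. Slc17a6 is also on the thalamus list, 5 of whose 6 genes tested in males had an unadjusted p under 0.05 and were higher. Summed CPM of the 7 thalamus markers was 57.8 to 198 in SI males and 64.9 to 94.4 in GH males.

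Most astrocyte markers were lower in SI females. For comparison, at an unadjusted p under 0.05, 11.0% of all genes were lower and 9.29% higher in SI females, and 3.89% passed the adjusted threshold. In males these shares were 7.38%, 5.63% and 0.0%. On lists as short as those below, a count of 1 is not read as a difference. Among 7 astrocyte markers, 6 had an unadjusted p under 0.05 and were lower in SI females, 4 of them past the adjusted threshold. Their summed level was 3610 to 5020 CPM (median 4250) in SI females and 4250 to 5950 (median 5400) in GH females. In males it was 2780 to 4840 (median 3290) under SI and 4020 to 5480 (median 4600) under GH, with 1 of 7 lower at an unadjusted p under 0.05. The 8 oligodendrocyte markers summed to a median of 7560 CPM in SI and 9070 in GH females (ranges 5870 to 9090 and 6630 to 10100), and 2 of them were lower at an unadjusted p under 0.05. By the same count 2 of 6 endothelial markers were higher in SI females, 1 past the adjusted threshold, with sums of 182 to 227 CPM against 156 to 182. Of the 6 dentate granule cell markers 2 were higher, with a median Log2FC of 0.17 and sums of 301 to 438 against 264 to 376 CPM. Of the other lists in females, 2 of 10 choroid plexus, 1 of 8 interneuron, 1 of 6 pyramidal and 1 of 7 thalamus markers were higher, 1 of 7 microglial markers was lower, and 0 of 8 striatal markers had such a p. In males 2 of 8 striatal, 1 of 6 pyramidal and 1 of 8 interneuron markers were higher, dentate granule cell markers had 1 lower and 1 higher, and oligodendrocyte, microglial, endothelial and choroid plexus markers had none. The 10 choroid plexus markers summed to 2120 to 5600 CPM in SI females, 1290 to 7160 in GH females, 166 to 4730 in SI males and 167 to 2950 in GH males. Slc4a5 of that list and Gbx2 of the thalamus list were at 0 in at least 1 library, and the other markers in none. Summed levels of the 6 pyramidal cell markers were 463 to 634 CPM in SI and 490 to 592 in GH females, and 548 to 707 in SI and 516 to 655 in GH males. The part of cell make-up in the differences of Rims1, Ppfia4 and the other members was not tested.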

How the data were processed

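Hippocampal RNA of 30 mice was sequenced after PolyA selection, 1 library per mouse. Per the paper, the authors used Trimmomatic 0.39 for trimming and Salmon 1.8.0 for quantification. They deposited a table of raw gene counts in whole numbers that had not been normalized. The submitters' processing notes name GRCm39 (mm39), and the annotation is not given in the sources used here. The table holds 17477 Ensembl IDs, each with at least 100 counts in all, and 0 columns without a sample. Symbols were matched for 94.1% of IDs and transcript lengths and GC content (GENCODE vM1, NCBIM37, longest protein-coding transcript) for 91.3%. Groups came from the sample titles.

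Each sex was tested apart in R 4.3.3 with edgeR 4.0.16: filterByExpr (minimum count 10, minimum total 15), TMM, svaseq surrogate variables (sva 3.50.0, number set with 20 permutations, seed 1) and glmQLFTest, with Benjamini-Hochberg adjustment over all genes tested and a threshold of 0.05. The interaction of sex and housing was tested in a joint fit of the 30 mice (4 surrogate variables). The log2 CPM used a prior count of 2. Alternatives were DESeq2 1.42.0, edgeR with no surrogate variables, and limma-voom (limma 3.58.1) with quality weights and no surrogate variables. Another edgeR fit took the digit that ends the title's code as a factor (position digit), also with no surrogate variables. Further ones were other filters and size factors, a joint fit of all groups, and leaving out mice. Length and GC trends were also subtracted per library (lowess, span 0.3), with and without surrogate variables. The edgeR steps were also run on simulated counts. These had no length trend, no libraries set apart and no hidden factor tied to housing, so that run does not bear on these features. Library totals of 18809307 to 100844898 counts gave each member at least 98 counts, so precision rests on the spread between mice. Members given in full are those past the threshold, the 6 with the smallest p in each sex, and Slc17a7, Snap25, Syp, Syt1, Vamp2, Bsn and Pclo. Of the other presynaptic genes, the 3 with the smallest p per list and sex are named. The members and lists were chosen with earlier results of these data known. No set test was run, and a list is described by counts and its median beside all genes.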

Additional observations from a re-analysis of the deposited data

Results flagged for a closer look

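Within-group gaps were checked for the 14 members given in full, 56 groups in all, with Dixon's ratio at its 95% critical value, which chance passes in about 1 of 20 groups. In 3 groups a single mouse lay far from the rest. Bsn was at 350 CPM in GH female 78, the lowest of 7, with a gap of 0.576 of the group's range. Rab3a was at 481 CPM in GH female 46, the highest of 7, with a gap of 0.588 of the range. Among GH males Rab3a was at 392 CPM in animal 24, the lowest of 8, with a gap of 0.594 of the range. Without GH female 78 the Log2FC of Bsn in females was -0.20, and without GH female 46 that of Rab3a in females was 0.18.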

How the results depend on the processing

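In females, where 2 of 54 members were called, the count was 9 with DESeq2 and surrogate variables, 13 with the length and GC trend removed, 5 with limma-voom quality weights and no surrogate variables, 1 with at least 10 counts in every library, and 0 in 3 fits that held no surrogate variables: plain edgeR, with the position digit as a factor, and with the trend removed. Of all genes, 5.23% passed with limma-voom, 3.96% with at least 10 counts in every library, 0.562% with the trend removed and no surrogate variables, and 0.0% in plain edgeR and with the position digit. The count was 3 (5.56%) with DESeq2 without surrogate variables and in the joint fit of all groups, against 2.9% and 2.67% of all genes. It was also 3 with DESeq2 size factors and with no filter, against 4.02% and 3.92%. Leaving out 1 female each gave 0 to 8: 8 without GH 46, 4 without GH 78 or SI 41, 5 without SI 52, 1 without SI 73, and 0 without GH 48, GH 54, SI 49, SI 63 or SI 68. The share of all genes moved too: it was 8.55% without GH 46, 6.69% without GH 78, 5.16% without SI 41, 6.64% without SI 52, 1.82% without SI 73, and between 0.55% and 1.8% in the 5 fits with 0 members. Without both SI 53 and GH 78, added after seeing the data, it was 9. In males, with 0 called, DESeq2 gave 1 with and 5 without surrogate variables (11.4% of the 44 members with an adjusted p, against 10.3% of the 2941 genes with one), and leaving out 1 male each gave 0 to 15, the 15 without SI 27 and 0 otherwise. The other presynaptic genes, 3 of 78 in females, were 9 with DESeq2 and surrogate variables, 10 with the trend removed, 1 with the trend removed and no surrogate variables, 5 without a filter, 0 in plain edgeR with no surrogate variables, with or without the position digit, and 11 without SI 53 and GH 78. Leaving out 1 female gave 0 (SI 68) to 10 (GH 46) of these. In males their count of 0 became 1 with DESeq2 without surrogate variables, and 0 to 17 on leaving out 1 male, 17 without SI 27. Without SI males 25, 33 and 39 the Log2FC of Rab3a in males reversed to -0.03 and that of Syp to -0.06. The causes were not tested. Medians over the members ranged from -0.02 to 0.05 in females and from -0.19 to 0.07 in males. No paired analysis was possible because each replicate number is an animal number that occurs in 1 group only. Male SI libraries had the lowest totals, from 18809307 counts, and the male standard errors were larger than the female ones for most members.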
